A study of Gallus gallus with 20 samples.

Results

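The CD (cluster of differentiation) genes described here are the chicken genes whose symbol is exactly CD, a number and at most 1 letter, such as CD3D, CD74 or CD8A. There were 46 of them among 19650 named genes in the transcript table of the kidney, and all 46 were kept whatever their level. They were taken by name and not by level. CD numbers were given to cell surface molecules in the order in which antibodies defined them, so the genes share a naming scheme and not a function. Some are parts of the antigen receptors of T and B lymphocytes, others sense microbes on macrophages or help to present peptides, and others are membrane proteins of nearly every cell. In the kidney such genes can report resident and passing leukocytes, the vessel wall, or the tubule cells themselves.

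Chicken (Gallus gallus) kidney and testis were profiled in the series by 19 small RNA libraries and 1 RNA-seq library. All values here come from the RNA-seq library, which was made from total RNA of kidney of an adult, with no treatment stated. The labels give no sex, strain or number of animals for it. The small RNA data were not used here. The library held 21832272 estimated reads over 79570 rows. There were no replicates, so no difference between samples could be tested and no p-value is given. Levels are in TPM (transcripts per 1000000), which allows for transcript length and is summed over the transcripts of a gene. Intervals are exact 95% Poisson or binomial intervals of the reads and cover counting error only. In this bulk tissue, fewer cells of a type and less RNA per cell cannot be told apart.

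The labelled tissue matched its markers: all 10 kidney genes, of the tubule apart from the podocyte gene PODXL, were detected, and their median was 272 TPM. Blood was present, with 4 of 5 blood genes detected at a median of 197 TPM and HBBR without reads. A level of at least 1 TPM, resting on 3 reads or more, counts here as detected. By this measure 51.4% of all genes and 70.5% of genes with a symbol other than a LOC number were detected. Unnamed assembled transcripts held 25.9% of the library's reads, and a CD gene can have reads there that its named rows lack.

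Of the 46 CD genes, 30 (65.2%) were detected, against 51.4% of all 19650 genes and 70.5% of the 12681 genes whose symbol is not a LOC number. The share thus lay between these backgrounds. At 10 TPM or more stood 12 CD genes (26.1%), against 27.6% of all genes. At 100 TPM or more stood 4 of them (8.70%), against 3.11% of all genes. Shares over genes with a symbol were not computed at 10 and 100 TPM. The median over the 46 genes was 3.79 TPM, against 1.21 TPM over all genes and 6.04 TPM over genes with a symbol. CD163 and CD72 had no reads, and 14 further genes lay above 0 but under 1 TPM. Together the CD genes held 1438 TPM and 0.229% of the library's reads.

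**Figure D1:**
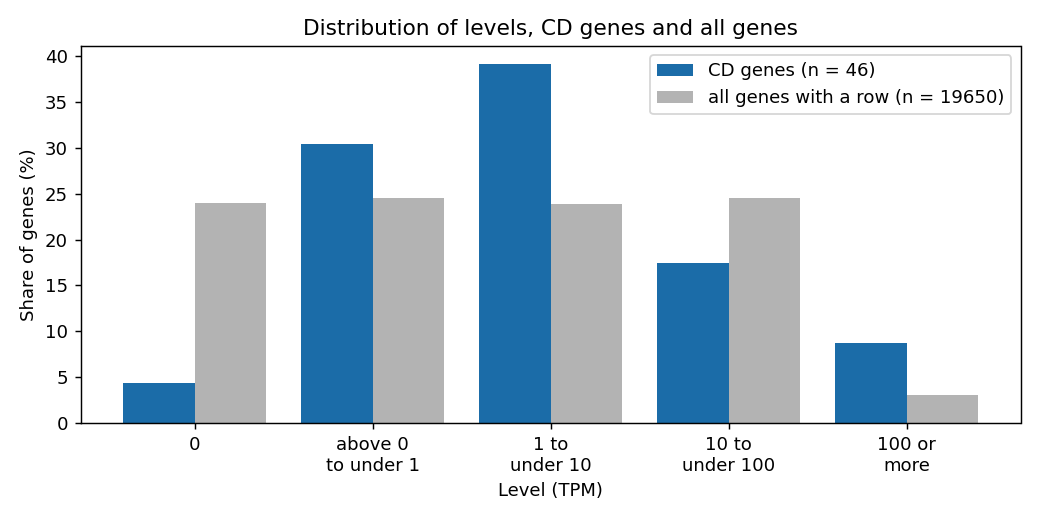
Share of genes (%, vertical axis, from 0) in 5 classes of level (TPM, horizontal axis) for the 46 CD genes (blue bars) and all 19650 genes with a row (grey bars). The class from 1 to under 10 TPM held 18 CD genes, more than any other class, and 2 CD genes lay at 0.

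A few genes carried most of this RNA. CD164, a mucin-like sialoprotein of endosomes and the cell surface, stood at 393.5 TPM (388 to 399). It ranked 140 among all genes and alone drew 42.8% of the reads of the CD genes. CD63, a tetraspanin of lysosomes and secreted vesicles, stood at 249 TPM (239.7 to 259). CD24, a heavily glycosylated protein anchored in the membrane by a lipid, stood at 197 TPM (192 to 203). CD74, the invariant chain of MHC class II, is not counted here among the broadly expressed genes and came next at 173 TPM (168 to 179). The intervals of these 4 genes do not overlap, and together they held 70.5% of the TPM of all CD genes. CD164 was 1.58-fold (1.51 to 1.65) above CD63.

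**Figure D2:**
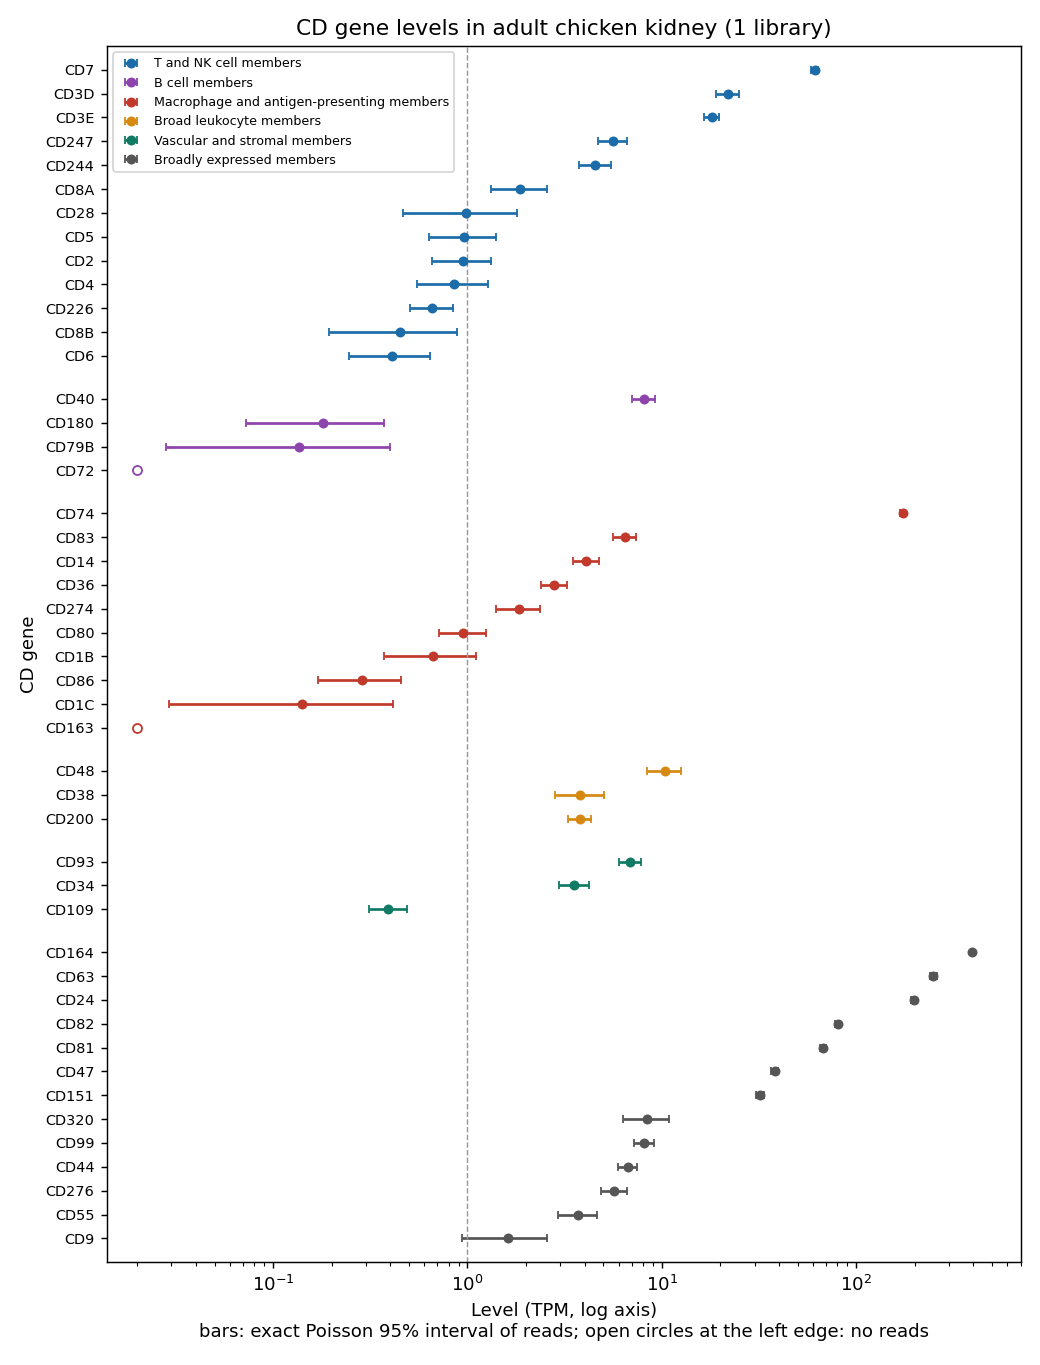
Level of each of the 46 CD genes (TPM, log axis), grouped by role, with the exact Poisson 95% interval of its reads; open circles at the left edge mark the 2 genes without reads and the dashed line marks 1 TPM. All 13 broadly expressed genes lie above the line, while 7 of 13 T and NK cell genes and 3 of 4 B cell genes lie below it.

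Against 51.4% of all genes and 70.5% of those with a symbol, the 13 broadly expressed CD genes with a row were all detected. Their median was 32.0 TPM, and they held 75.9% of the TPM of the CD genes. After CD164, CD63 and CD24 came 3 more tetraspanins and CD47. Tetraspanins are small proteins that cross the membrane repeatedly and gather integrins and other partners into clusters. Of these, CD82 stood at 80.2 TPM (77.6 to 83.0), CD81 at 67.5 TPM (65.1 to 70.0) and CD151, a partner of laminin-binding integrins, at 32.0 TPM (30.4 to 33.6). CD9, a tetraspanin of many epithelia in mammals, stood at 1.61 TPM (0.939 to 2.58) from 17 reads on its only row, of 865 bases. It was the lowest of the 13, and its interval included 1 TPM. CD47, the signal that keeps macrophages from engulfing a cell, stood at 38.1 TPM (36.5 to 39.8).

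The other broadly expressed genes lay between 3.70 and 8.36 TPM. CD320, the receptor that takes up cobalamin with its carrier, stood at 8.36 TPM (6.29 to 10.9), and CD99, an adhesion molecule of leukocytes and endothelium, at 8.07 TPM (7.15 to 9.07). CD44, the receptor for hyaluronan, stood at 6.68 TPM (5.95 to 7.47) and CD276, an immune checkpoint molecule of the B7 family, at 5.70 TPM (4.86 to 6.63). The intervals of neighbours in this order overlap, while that of CD276 lies below that of CD99. CD55, which speeds the decay of complement convertases, stood at 3.70 TPM (2.92 to 4.63), below all 4 of those intervals.

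For comparison within the tetraspanin family, 13 of 20 other tetraspanin genes were detected (65%, against 70.5% of genes with a symbol). The list median was 8.71 TPM. TSPAN3 stood at 206 TPM, TSPAN1 at 159 TPM, TSPAN13 at 82.6 TPM and TSPAN7 at 64.9 TPM, while TSPAN10 and PRPH2 had no reads. CD63 thus lay above the highest TSPAN gene of this list, and CD9 lay under the list median. The intervals of CD82 and TSPAN13 overlap, as do those of CD81 and TSPAN7.

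T cells recognise peptides through a receptor whose signal passes through the CD3 chains and the zeta chain CD247. CD4 and CD8 are co-receptors that bind MHC class II and class I. Of the 13 T and NK cell CD genes, 6 were detected (46.2%, against 51.4% of all genes and 70.5% of those with a symbol). The median of the 13 was 0.977 TPM. The signalling chains stood well above the co-receptors. CD3D, which in birds stands for both the gamma and the delta chain, stood at 21.8 TPM (19.0 to 25.0). CD3E, the epsilon chain, stood at 18.1 TPM (16.5 to 19.8) from 475 reads. The ratio of CD3E to CD3D was 0.827 (0.700 to 0.975), and with annotated instead of effective transcript length it was 0.980. CD247 stood at 5.62 TPM (4.72 to 6.65), 0.311 times (0.255 to 0.378) the level of CD3E.

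CD8A, the co-receptor chain of cytotoxic T cells, stood at 1.87 TPM (1.33 to 2.55) from 39 reads. CD4, the co-receptor of helper T cells, stood at 0.857 TPM (0.549 to 1.28) from 24 reads. Their ratio was 2.18 (1.28 to 3.78), and with the most abundant transcript of each alone it was 1.43. CD8B, the partner chain of CD8A, stood at 0.448 TPM (0.193 to 0.883) from 8 reads, and CD8A was 4.16-fold (1.92 to 10.3) above it. The CD8B row carries another symbol in a later gene table, so its identity is less certain. CD8A belongs to a family of related chicken genes, and its level is uncertain where reads could be shared among them. Its estimated reads, like those of CD4, CD8B and CD3E, came to a whole number.

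CD28, the co-stimulatory receptor, stood at 0.977 TPM (0.469 to 1.80) from 10 reads. CD5, a scavenger-type receptor that dampens T cell receptor signals, stood at 0.965 TPM (0.636 to 1.40), and its relative CD6 at 0.410 TPM (0.247 to 0.640). CD2, an adhesion molecule of T and NK cells, stood at 0.945 TPM (0.658 to 1.31). The intervals of CD28, CD5, CD2 and CD4 include 1 TPM, so these genes are not separated from the detection threshold. CD226, an activating receptor of NK and T cells, stood at 0.657 TPM (0.506 to 0.839). CD244, a receptor of the SLAM family on NK and cytotoxic T cells, stood at 4.53 TPM (3.73 to 5.45).

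CD7 stood apart in this list at 61.0 TPM (58.5 to 63.6). It is an immunoglobulin-family protein of T and NK cells in mammals. Its level was 3.38-fold (3.06 to 3.74) that of CD3E, and it held 51.6% of the TPM of the 13 genes. The other 12 genes together came to 57.2 TPM. Of its 9 transcripts, that of 2196 bases held 83.2% of the TPM with 1604 reads, and 6 had reads. The CD7 reads did not come to a whole number, as happens where Salmon divides reads between a gene and rows outside it.

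Other genes of these cells were measured beside them. Detection extended to 12 of 16 T cell signalling genes (75%, against 70.5% of genes with a symbol), whose median was 2.07 TPM. This list includes CD28. Its highest levels were GATA3 at 26.9 TPM, a transcription factor also made by collecting duct cells in mammals, FYN at 10.1 TPM, IL7R at 4.37 TPM and TBX21 at 3.59 TPM. The kinases LCK and ZAP70, chosen after their values were seen because they act directly on the CD3 and zeta chains, stood at 2.65 and 2.24 TPM. Of the cytotoxic and NK cell genes 8 of 9 were detected (88.9%). Their median was 2.64 TPM, and they were led by GZMM at 8.37 TPM, XCL1 at 8.21 TPM, GZMK at 3.54 TPM and FASLG at 2.93 TPM. CD3D and CD3E thus lay above all of these T and cytotoxic cell genes except GATA3, which lay above both.

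**Figure D3:**
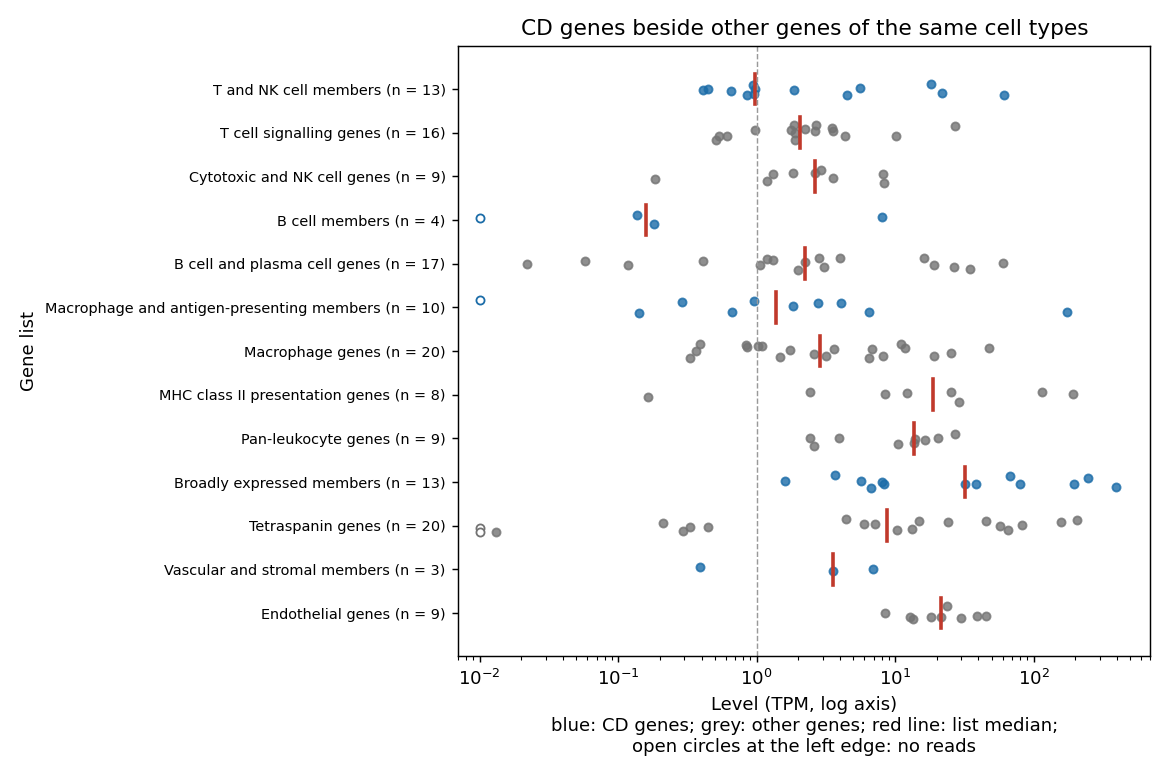
Levels (TPM, log axis) of CD genes by role (blue) and of other genes of the same cell types (grey), with the list median as a red line, genes without reads as open circles at the left edge and a dashed line at 1 TPM. The median of the B cell CD genes, 0.159 TPM, lies lowest, and that of the broadly expressed CD genes, 32.0 TPM, highest.

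B cells signal through CD79B and its partner chain, and CD72 and CD180 tune that signal. Of the 4 B cell CD genes, 1 was detected (25.0%, against 51.4% of all genes and 70.5% of those with a symbol). The median of the 4 was 0.159 TPM. CD79B, which defines the lineage, had 3 reads and stood at 0.136 TPM (0.0281 to 0.398). CD180, a Toll-like receptor relative, stood at 0.181 TPM (0.0729 to 0.373) from 7 reads. CD72 had no reads on its 4 rows, where 3 reads would have been at most 0.141 TPM. CD40, the receptor through which helper T cells license B cells and macrophages, was the member detected, at 8.09 TPM (7.03 to 9.27). It is also made by macrophages, endothelium and epithelium, and its level was 59.4-fold (20.0 to 290) that of CD79B. CD3E was 133-fold (45.1 to 645) above CD79B, with the wide interval set by the 3 CD79B reads.

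Among other B cell and plasma cell genes, 13 of 17 were detected (76.5%, against 70.5% of genes with a symbol). The list median was 2.22 TPM. The highest were XBP1 at 59.7 TPM, BCL6 at 34.6 TPM, PIK3AP1 at 26.5 TPM and BLNK at 19.1 TPM. XBP1 and BCL6 are also made by many other cell types. A further 4 genes were chosen after their values were seen. PAX5, the factor that defines B cell identity, had 1 read, at 0.0573 TPM, and the B cell survival receptor TNFRSF13C had 1 read, at 0.0218 TPM. JCHAIN, which joins secreted IgA and IgM and is made by plasma cells, stood at 16.1 TPM (14.5 to 17.8), and POU2AF1, made by both, at 1.99 TPM (1.58 to 2.48).

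Macrophages and other antigen-presenting cells show peptides on MHC class II, whose assembly needs the invariant chain CD74. Of the 10 CD genes in this list, 5 were detected (50.0%, against 51.4% of all genes and 70.5% of those with a symbol). The median of the 10 was 1.39 TPM. CD74 held 91.0% of the TPM of the list. The row that gave its level carries a non-coding transcript identifier, as does that of CD47. Of the class II chain genes, BLA stood at 194 TPM (169.6 to 222), BLB2 at 114 TPM (109 to 121) and BLB1 at 29.2 TPM (26.5 to 32.1). CD74 was 0.892 times (0.779 to 1.03) BLA, an interval that includes 1, and 1.52-fold (1.43 to 1.61) above BLB2. The BLA level rests on 221 reads of a short row, and the division of reads between the near-identical BLB1 and BLB2 is uncertain. Of the class II presentation genes 7 of 8 were detected (87.5%). The median was 18.8 TPM, and the protease CTSS, which cuts the invariant chain, stood at 25.5 TPM.

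The macrophage-type CD genes were far lower. CD83, a marker of mature dendritic cells, stood at 6.45 TPM (5.61 to 7.39). CD14, the co-receptor for lipopolysaccharide, stood at 4.07 TPM (3.48 to 4.74), and CD36, a scavenger receptor that also takes up fatty acids, at 2.80 TPM (2.39 to 3.25). CD274, the ligand known as PD-L1, stood at 1.83 TPM (1.40 to 2.35). Of the co-stimulatory ligands of CD28, CD80 stood at 0.952 TPM (0.717 to 1.24) and CD86 at 0.287 TPM (0.170 to 0.453), so that CD86 was at 0.301 times (0.167 to 0.521) the level of CD80. CD1B and CD1C, which present lipids, stood at 0.668 TPM (0.374 to 1.10) and at 0.141 TPM (0.0291 to 0.413). CD163, the haemoglobin scavenger receptor of mammalian macrophages, had no reads on its 4 rows, where 3 reads would have been at most 0.0601 TPM. In a later gene table these rows and that of CD80 carry another symbol, so their identity is less certain.

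Other macrophage genes were detected for 15 of 20 members (75%, against 70.5% of genes with a symbol), with a median of 2.87 TPM. HMOX1, which many other cells also make, stood at 48.1 TPM, CTSS at 25.5 TPM and MPEG1 at 11.8 TPM. CSF1R, the growth factor receptor that defines the lineage, was chosen after its value was seen and stood at 6.83 TPM (6.21 to 7.50), above CD14 and near CD83. Against 70.5% of genes with a symbol, all 9 pan-leukocyte genes were detected. Their median was 13.8 TPM, and the highest were RAC2 at 27.0 TPM, LCP1 at 20.5 TPM, ARHGDIB at 16.6 TPM and LAPTM5 at 13.9 TPM. Every pan-leukocyte gene of the list that had a row was thus detected. The B cell CD genes ranged from 0 to 8.09 TPM, and the macrophage and antigen-presenting ones from 0 to 173 TPM.

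Of the 3 CD genes of leukocytes in general, all were detected, against 51.4% of all genes and 70.5% of those with a symbol. CD48, a SLAM-family molecule that binds CD244, stood at 10.3 TPM (8.41 to 12.6) from 100 reads. CD38, an enzyme that breaks down NAD, stood at 3.80 TPM (2.81 to 5.02), and CD200, an inhibitory ligand of lymphocytes, neurons and endothelium, at 3.78 TPM (3.27 to 4.34). The levels of CD38 and CD200 do not differ beyond their intervals.

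Among the vascular and stromal CD genes 2 of 3 were detected (66.7%, against 51.4% of all genes and 70.5% of those with a symbol). CD93, a lectin-like receptor of endothelium, stood at 6.88 TPM (6.03 to 7.81) and CD34, a sialomucin of endothelium and blood progenitors, at 3.54 TPM (2.97 to 4.19). In a later gene table CD93 is only a synonym of CD248, so the identity of the CD93 row is less certain. CD109, a protein of the macroglobulin family, stood at 0.390 TPM (0.312 to 0.486), although 82.6 reads fell on its row of 13573 bases. The 9 other endothelial genes were all detected, and their median was 21.5 TPM. The highest was PLVAP (45.2 TPM), followed by PECAM1 (38.8 TPM), VWF (30.1 TPM) and KDR (23.6 TPM). CD93 and CD34 lay below every gene of that list, of which ESAM, chosen after its value was seen, was the lowest at 8.43 TPM (7.27 to 9.74). The intervals of ESAM and CD93 overlap.

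Many CD proteins act by binding another surface or secreted protein, and 14 such partner genes were measured. They were listed after the levels of the CD genes had been seen. The receptor genes SIRPA, CD200R1, PDCD1 and CTLA4 stood under 1 TPM, with intervals that include 1 TPM. SIRPA, the macrophage receptor of CD47, stood at 0.704 TPM (0.390 to 1.11), and THBS1, its secreted ligand, at 21.5 TPM. CD200R1, the receptor of CD200, stood at 0.729 TPM (0.439 to 1.14). PDCD1, the receptor of CD274, stood at 0.938 TPM (0.565 to 1.46), and CTLA4, which competes with CD28, at 0.534 TPM (0.196 to 1.16). CD40LG, the T cell ligand of CD40, stood at 0.911 TPM (0.437 to 1.68). CD47, CD200 and CD40 thus each stood above the gene of the leukocyte molecule they bind, with intervals that do not overlap. Those of CD274 and PDCD1, and of CD28 and CTLA4, overlap.

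For CD14, the signalling partners TLR4 and LY96 stood at 0.834 and 1.61 TPM, both below CD14. For CD180, the co-subunit LY86 stood at 1.35 TPM (0.826 to 2.09), above CD180 itself. The integrin gene ITGA3 at 35.3 TPM (33.7 to 36.9) lay just above CD151, and ITGA6 at 21.9 TPM (21.0 to 22.9) lay below it. Neither interval overlaps that of CD151. TCN2, the carrier that CD320 takes up, stood at 60.1 TPM. SPP1, a secreted ligand of CD44, stood at 372 TPM (362 to 382), and MMRN2, a matrix ligand of CD93, at 10.1 TPM. In these last 3 cases the secreted partner stood above the CD gene.

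**Figure D4:**
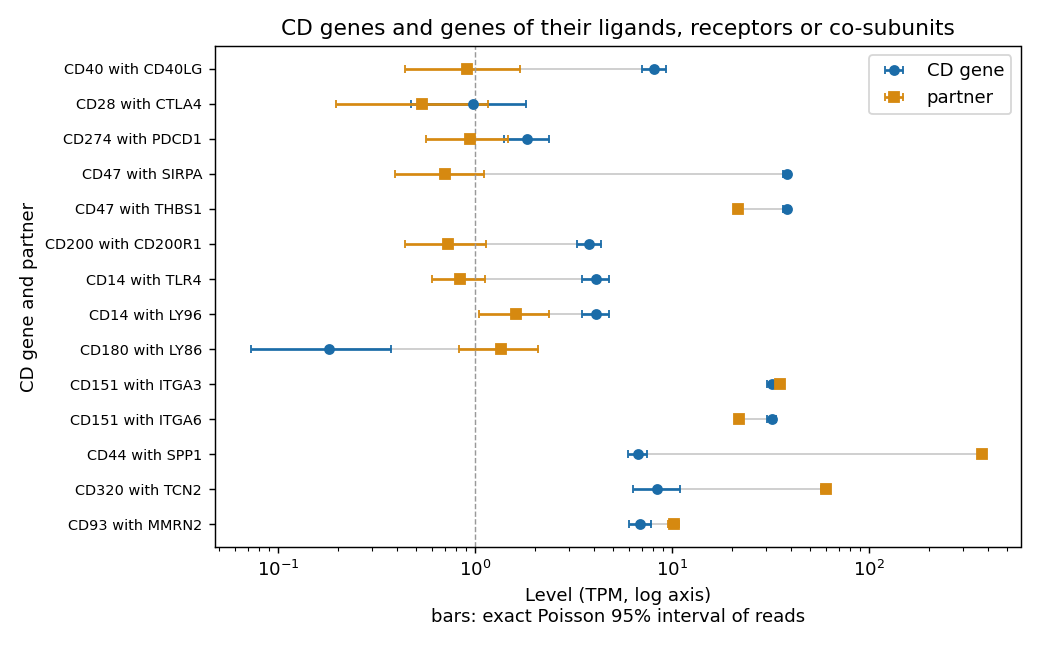
Levels (TPM, log axis) of CD genes (blue circles) and the genes of their ligands, receptors or co-subunits (orange squares), with exact Poisson 95% intervals of the reads and a dashed line at 1 TPM. The partners CD40LG, CTLA4, PDCD1, SIRPA, CD200R1 and TLR4 lie below the line, and SPP1 lies highest at 372 TPM.

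The 46 genes had 145 rows, and 25 genes had 1 row each. The rows ranged from 595 to 13573 bases. Of the 21 genes with several rows, the leading transcript held over 90% of the TPM in 9 and under 60% in 6. CD247 was divided almost evenly, with 51.4% on a transcript of 1597 bases and 48.6% on one of 1864 bases. CD244 had 30 rows, of which 4 had reads, and its leading transcript held 42.0%. CD44, whose exons are variably spliced in mammals, had 26 rows, of which 6 had reads. A non-coding CD44 transcript of 1331 bases held 46.3% of its TPM but 18.1% of its reads, and the coding transcript of 4384 bases held 44.0%. For CD40 the coding transcript of 920 bases held 77.0% of the TPM, while a non-coding one of 4873 bases held 66.0% of the reads. In CD200 the transcripts with non-coding identifiers held 35.7% of the TPM. The estimated reads of 34 genes came to a whole number within 0.01, and those of the other 12, among them CD164, CD63, CD24, CD74 and CD7, did not.

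**Figure D5:**
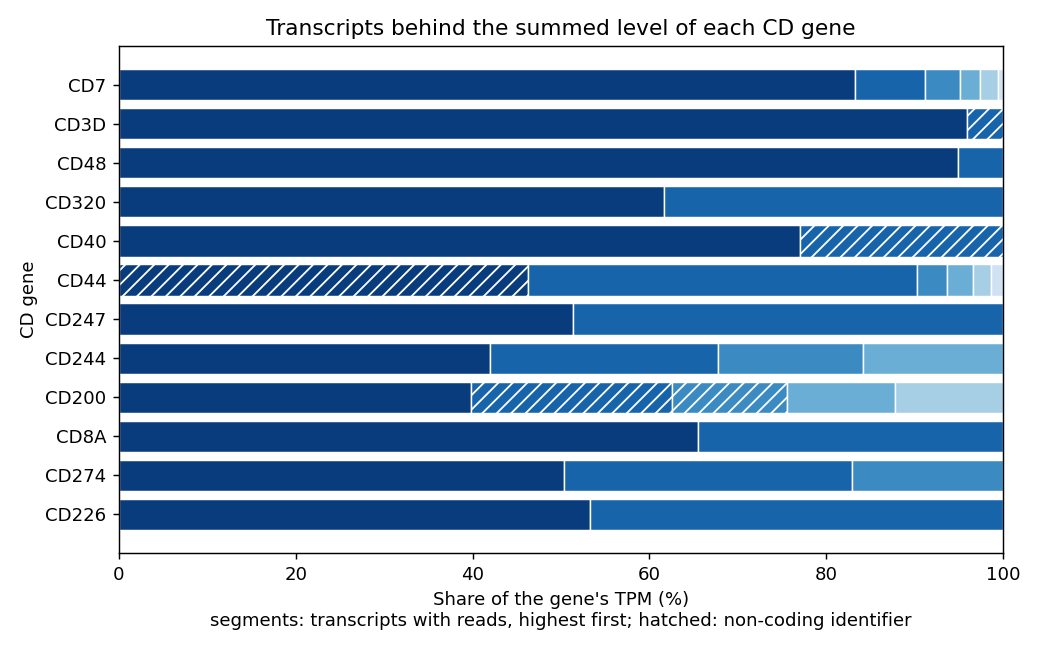
Share of each gene's TPM (%, horizontal axis) held by its transcripts with reads, for the CD genes with more than 1 such transcript; segments run from the most to the least abundant and hatched ones carry non-coding identifiers. CD3D and CD48 rest mainly on 1 transcript, while CD247, CD244, CD200, CD44, CD274 and CD226 are divided, with leading shares under 60%.

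Some of the symbols have changed. In the later RefSeq gene table of the GRCg7b build, 42 of the 46 genes keep their symbol. Of these, 38 were matched by transcript, and CD164, CD63, CD74 and CD47 by symbol alone. The CD80 transcript is named CD88 there, with CD80 as a synonym, and that of CD8B is named CD8BP. That of CD163 belongs to LOC418303, while CD93 is given only as a synonym of CD248. The names and roles of CD80, CD8B, CD163 and CD93 are therefore less certain than those of the genes matched by transcript. In the gene order of that build 4 pairs of CD genes are direct neighbours. CD3E and CD3D, on opposite strands, stood at 18.1 and 21.8 TPM, and CD6 and CD5, on the same strand, at 0.410 and 0.965 TPM. CD244 and CD48 stood at 4.53 and 10.3 TPM, and CD1B and CD1C at 0.668 and 0.141 TPM.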

How the data were processed

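RNA-seq of adult chicken kidney was used, 1 library of total RNA made by a TruSeq protocol, per the labels. Samples were grouped by their titles. The authors deposited transcript abundances from Salmon on galGal6, per the submitters' processing notes. Neither its version nor how the transcript set was made is stated in the sources at hand. The authors' TPM values sum to 1000000 over all rows. The deposited estimated counts (reads) were split by Salmon among rows that share sequence and were not whole in 27.7% of rows. Rows under 300 bases held 35.4% of TPM.

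The gene was read from the row name, and TPM and reads were summed per gene with pandas 2.3.3. Reads were rounded for exact Poisson intervals, which were converted to TPM. Intervals of ratios between genes are exact and condition on the summed reads (SciPy 1.17.1). With no molecular identifiers, reads are not independent molecules. Interval coverage was tested only on simulated Poisson counts, the model the intervals assume. It therefore does not show their coverage for these estimated reads. For genes at 0, the limit given is what 3 reads on the shortest row would be in TPM.

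All 46 genes were divided among 6 role lists, and 11 lists of other genes were set beside them. Every CD gene that was detected, and every T cell, B cell and macrophage one, was to be named, and from other lists the 4 highest genes and up to 3 without reads. Some genes that this rule names are not reported here. The members and lists were chosen with earlier results of these data known. Planned protein features were left out, since no protein sequences were used here. Genes were matched to the later RefSeq table by transcript, and 4 (CD164, CD63, CD74 and CD47) by symbol alone. Of the symbols of this form in that table, 7 had no row of that name and were not analysed here.

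Alternatives were other detection thresholds, the most abundant transcript alone, annotated length, rescaling over named gene rows of 300 bases or more or without the 10 most abundant genes, and a minimum of 3 reads. Restriction to genes that keep their symbol was chosen after seeing the data.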

Additional observations from a re-analysis of the deposited data

Results flagged for a closer look

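Symbols that begin with CD and a number but carry more letters fell outside the naming rule, and 10 had rows. Of those used in no comparison, 3 had more than the 3 reads taken as the limit. The slit diaphragm adaptor CD2AP stood at 21.9 TPM (20.6 to 23.3), CD99L2, a relative of CD99, at 10.3 TPM (9.59 to 11.0), and CD300LG at 2.74 TPM (2.06 to 3.56).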

How the results depend on the processing

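The number of CD genes detected lay between 27 and 38 under the alternatives, against 30. The share of genes detected, 51.4% of all genes in the report, moved with it and follows each count. After rescaling over named rows, this share covers only genes with a row of 300 bases or more. It is therefore not directly comparable with the others. Without the 10 most abundant genes, the share leaves those genes out. The count was 37 (56.3%) at 0.5 TPM, 27 (45.8%) at 2 TPM, 30 (51%) with at least 10 reads, 29 (50.2%) with the most abundant transcript alone, and 29 among genes that keep their symbol, where the share over all genes was not computed. Annotated length gave 37 (54.8%), rescaling over named gene rows of 300 bases or more 38 (60.2%), and rescaling without the 10 most abundant genes 35 (54%). The genes CD2, CD28, CD4, CD5 and CD80 were detected in addition under each of these last 3. Both rescalings multiply every level by a constant, 2.37 and 1.42, and annotated length raised levels by 1.20 to 1.74 times. Under these 3 settings in that order (named rows, without the top 10, annotated length), the median of the broadly expressed genes was 75.7, 45.3 and 53.1 TPM. That of the vascular genes was 8.39, 5.02 and 5.79 TPM, that of the general leukocyte genes 8.99, 5.38 and 6.24 TPM, and that of the macrophage genes 3.29, 1.97 and 2.28 TPM. The T and NK cell median was 2.31 TPM after rescaling over named rows. The macrophage median was 0.937 TPM with the most abundant transcript alone, 1.83 TPM with at least 3 reads and 2.31 TPM among genes that keep their symbol, and the vascular median was then 1.97 TPM. The ratio of CD3E to CD3D was 0.980 with annotated length. The ratios of CD8A to CD4 and of CD3E to CD79B stayed within their intervals under annotated length and the most abundant transcript alone. Depth limits the genes with few reads, such as CD79B and CD1C with 3 each, and nothing measures variation between animals. No paired analysis was possible because the table holds 1 library.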

Other observations

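Heterophils, the avian counterpart of neutrophils, and nucleated thrombocytes are blood cells that have no role list among the CD genes. Of 8 marker genes of these cells with a row, 5 were detected (62.5%, against 70.5% of genes with a symbol). The list median was 1.26 TPM. The integrin chain ITGB3 stood at 5.05 TPM, the platelet integrin chain ITGA2B at 1.53 TPM and GP1BB at 1.43 TPM from 9 reads. LECT2 had no reads.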
